A study of Mus musculus with 8 samples.

Results

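Tuft cells are sensory cells of the gut epithelium, and 32 genes known for their identity, their taste-like signalling or their products were followed in sorted Lgr5-high intestinal stem cells with and without a conditional deletion of Irf2. The genes were chosen by name. A probe matched 31 of the 32, and 24 were measured, meaning that their signal was well above background on 4 or more arrays out of 8, among 25404 features in all, of which 15114 carried a symbol. Sh2d6 had no matched probe, and Chat, Gnat3, Hpgds, Il25, Inpp5d, Ptgs1 and Sucnr1 did not reach 4 arrays. Where several probes of a gene qualified, the brightest one stood for it. Values are log2 signals relative to the 75th percentile of the array, so a difference of 1 is a doubling, and levels of different genes are not set against each other because probes differ in brightness.

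The control mice carried Irf2fl/fl and Lgr5-EGFP-Ires-CreERT2, and the Irf2AhcKO mice carried AhCre as well, with 4 arrays in each group. Both groups therefore shared the floxed Irf2 alleles, the reporter with its CreERT2, and β-naphthoflavone given on 5 consecutive days, 1 month before the cells were taken. AhCre is a Cre recombinase under a xenobiotic-inducible promoter that β-naphthoflavone turns on, so deletion reaches the cells that respond to this agent. The design text speaks of 4 independent mice per genotype and also of 2 biological replicates, and p-values here speak only for the spread among these 8 samples. The scanner data of control replicates 3 and 4 have names that mention AhCre, against their labels.

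Each of the 2 slides held 2 arrays of each group, with replicates 1 and 2 on slide 1 and replicates 3 and 4 on slide 2. Between 61.4% and 69.8% of the spots of an array were well above background, and none was saturated. Precision is limited by how few arrays there are. The slide was a term of every comparison unless stated, since 35.5% of all features differed between slides. Of the 24 tuft cell genes, Dclk1 and Il13ra1 did so, standing 1.16 and 0.59 higher on slide 2 (limma adjusted p = 0.00525 and 0.00851). Irf2 itself was not lower in the arrays labelled Irf2AhcKO, at 0.91 ± 0.23 (SD, n = 4) against 0.64 ± 0.26 (SD, n = 4) in controls (limma adjusted p = 0.429). The sources used here do not give where its probe lies relative to the deleted part, and it may check nothing, so all directions are between arrays as labelled. The stem cell markers Lgr5, Ascl2, Smoc2, Axin2 and Slc12a2 were well above background on all 8 arrays.

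Tuft cells detect luminal signals, among them succinate from protists and helminths, through a cascade like that of taste cells, in which phospholipase C releases calcium and opens the cation channel Trpm5. They answer with the cytokine Il25, with leukotrienes and with prostaglandins. Il25 acts on lymphoid cells whose interleukin 13 returns to the epithelium and drives more tuft cells to form from stem cells. The POU-domain factor Pou2f3 is required for the lineage. Some of these genes, such as Vav1, Ptpn6, Inpp5d and Fyb, are better known from white blood cells.

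The factor Pou2f3 belongs to a family that binds the octamer ATGCAAAT, and IRF factors bind elements in which GAAA is repeated after any 2 bases. Promoter windows of 300 bases, from 250 before to 50 after each gene's start in RefSeq (GRCm38.p6), were found for 28 of the 32 tuft cell genes and searched on both strands. The octamer was present in 2 of the 28, Hpgds and Sucnr1 (7.14%, against 1.97% of all 27025 genes with a window). Its first 7 bases, ATGCAAA, which lie within the octamer, were present in 4, also in Avil and Ffar3 (14.3% against 5.24%). The IRF element was in 0 of the 28 (3.99% of all genes). A match is a description of the letters and not a binding site. The windows of Trpm5, the gene with the smallest p below, of Avil, which held the shorter motif on each strand, and of Sucnr1, the succinate receptor, are shown 5′ to 3′ with motif letters in capitals (Trpm5 chr7:143094593-143094892 on the minus strand, Avil chr10:127000459-127000758 and Sucnr1 chr3:60081619-60081918 on the plus strand).
Trpm5: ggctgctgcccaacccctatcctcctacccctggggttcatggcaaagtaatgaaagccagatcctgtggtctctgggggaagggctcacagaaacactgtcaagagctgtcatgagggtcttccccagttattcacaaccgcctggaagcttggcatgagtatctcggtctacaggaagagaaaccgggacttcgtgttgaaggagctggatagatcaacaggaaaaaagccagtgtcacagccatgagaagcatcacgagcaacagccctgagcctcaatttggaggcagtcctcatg
Avil: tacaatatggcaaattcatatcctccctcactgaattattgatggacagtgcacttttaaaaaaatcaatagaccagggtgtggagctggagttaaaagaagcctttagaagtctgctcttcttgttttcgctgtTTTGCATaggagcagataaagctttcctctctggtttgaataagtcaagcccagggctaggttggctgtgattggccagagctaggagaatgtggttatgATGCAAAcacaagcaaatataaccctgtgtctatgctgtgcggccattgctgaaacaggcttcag
Sucnr1: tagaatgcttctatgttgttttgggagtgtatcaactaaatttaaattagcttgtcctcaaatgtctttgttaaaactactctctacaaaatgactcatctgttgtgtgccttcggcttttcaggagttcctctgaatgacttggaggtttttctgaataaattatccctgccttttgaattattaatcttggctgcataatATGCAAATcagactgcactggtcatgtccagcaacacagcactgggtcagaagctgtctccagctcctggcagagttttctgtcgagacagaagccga
In the Sucnr1 window the octamer began 48 bases before the start. In the Avil window the motif began 115 and 15 bases before the start, and the Trpm5 window held none of the 3 motifs.

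No tuft cell gene passed limma's test with Benjamini-Hochberg adjustment over all features (0 of 24), where 25 features did overall (0.0984%, and 0 with the replicate number as a block). The lowest adjusted p among the 24 was 0.312. At an unadjusted limma p below 0.05 there were 5 (Trpm5, Dclk1, Plcg2, Siglecf and Fyb), each with a positive difference, where 11.7% of all features had such a p, 5.98% with a positive and 5.75% with a negative difference. The difference was positive in 19 of the 24 against 49.5% of all features. The median difference of the 24 was 0.20 on the log2 scale, against -0.002 over all features, with 0.08 on slide 1 and 0.38 on slide 2. That median was 0.06 without Irf2AhcKO replicate 2, 0.05 without replicate 3 and 0.01 without both, a pair chosen after seeing the data. It was 0.12 without control replicate 3 and 0.34 without Irf2AhcKO replicate 1. In these bulk samples, fewer or more cells that express these genes and less or more of their RNA per cell cannot be told apart.

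**Figure D1:**
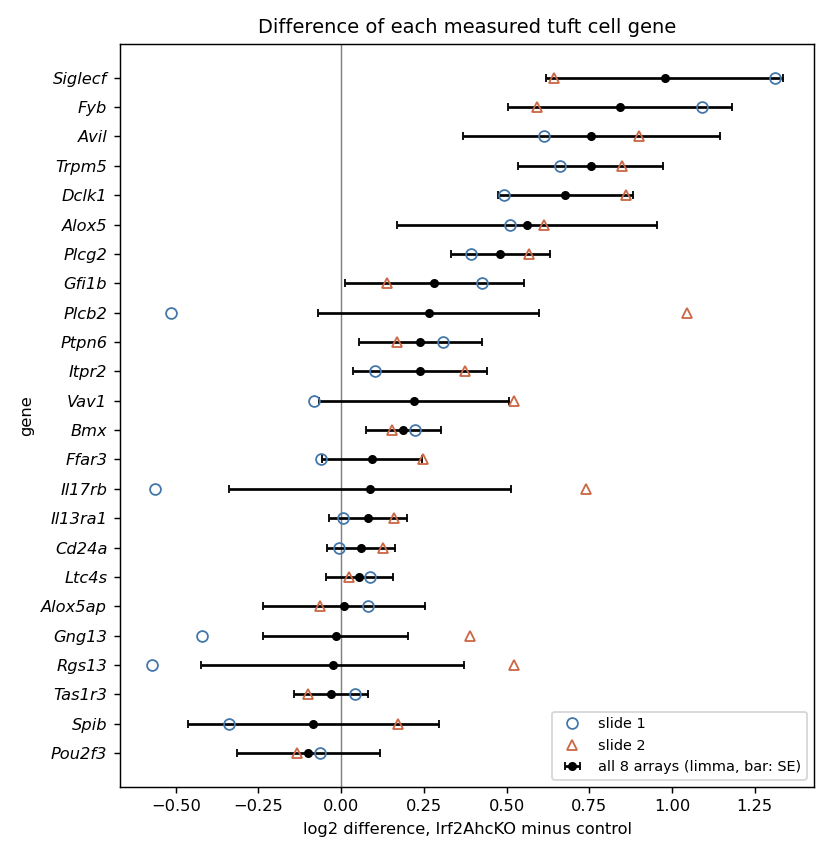
Log2 difference (horizontal axis, Irf2AhcKO minus control) of each measured tuft cell gene, with black points and bars for the limma estimate over 8 arrays and its SE, circles for slide 1 and triangles for slide 2. Siglecf, at 0.98, lies at the top and Pou2f3, at -0.10, at the bottom, and the slides lie on opposite sides of 0 for 10 of the 24 genes, most widely for Plcb2, Il17rb, Rgs13 and Gng13.

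Among the regulators of the lineage, Pou2f3 read -0.99, -1.27, -0.93 and -1.03 on control replicates 1 to 4 and -1.27, -1.12, -0.59 and -1.64 on Irf2AhcKO replicates 1 to 4. The Irf2AhcKO arrays thus enclosed the whole control range, with replicate 3 the highest and replicate 4 the lowest of all 8. The difference was -0.10 (SE 0.22, limma adjusted p = 0.868).
Gfi1b, a zinc finger repressor that marks tuft cells in the gut, read -3.93, -4.13, -3.63 and -3.56 in controls and -4.22, -2.99, -3.16 and -3.76 in Irf2AhcKO. Replicates 2 and 3 of Irf2AhcKO stood above every other array, replicates 1 and 4 within or below the controls, and 1 of the Irf2AhcKO arrays was not well above background (difference 0.28, SE 0.27, adjusted p = 0.682). The difference was 0.0076 without Irf2AhcKO replicate 2, 0.43 without replicate 4 and 0.50 without replicate 1. Spib, an ETS factor, showed the same spread, from -1.98 to -0.25 in Irf2AhcKO around controls between -1.25 and -0.81, and a difference of -0.08 (SE 0.38).

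The channel Trpm5, at the end of the taste-like cascade, was the tuft cell gene with the smallest p. It read 0.66, 0.13, 0.69 and 0.50 on the control arrays and 0.76, 1.35, 1.82 and 1.07 on the Irf2AhcKO arrays. The lowest Irf2AhcKO array lay above the highest control, which held for 1 of the 24 genes and 3.85% of all features. This gave a difference of 0.75 (SE 0.22, limma adjusted p = 0.312). It came to 0.66 on slide 1 and 0.85 on slide 2, and was positive in all 23 alternatives, at 0.59 to 0.89 with 1 array left out.

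Plcg2, a phospholipase C of the gamma type, read 0.05, 0.26, 0.31 and 0.61 in controls and 0.26, 0.83, 1.13 and 0.92 in Irf2AhcKO. Only Irf2AhcKO replicate 1 fell within the control range, and the difference was 0.48 (SE 0.15, limma adjusted p = 0.330).
Plcb2, the phospholipase C of taste cells, went opposite ways on the slides, with -0.51 on slide 1 and 1.04 on slide 2. Its 4 Irf2AhcKO arrays spread from -0.94 on replicate 1 to 0.89 on replicate 3, around controls between -0.48 and -0.07. Gng13, the G protein gamma subunit of the cascade, differed by -0.42 on slide 1 and 0.39 on slide 2. The calcium release channel Itpr2 differed by 0.24 (SE 0.20), with replicate 3 of Irf2AhcKO the highest array. Tas1r3, a subunit of the sweet and umami receptors, lay between -1.48 and -1.11 over all 8 arrays (difference -0.03, SE 0.11). Gnat3, the G protein alpha subunit gustducin, was not well above background on any array.

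Of the receptors for microbial metabolites, Ffar3, which binds short-chain fatty acids, lay between -1.46 and -0.87 on all 8 arrays and differed by 0.09 (SE 0.15). The succinate receptor Sucnr1 was well above background on 1 array of each group. It read -2.47 on control replicate 4 and -2.83 on Irf2AhcKO replicate 3, and between -6.60 and -6.38 on the other 6 arrays, so that each group had 1 array far above the rest.

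Among the leukotriene genes, Alox5, the lipoxygenase that starts leukotriene synthesis, read -3.63, -2.09, -2.48 and -2.81 in controls and -2.85, -1.84, -1.59 and -2.47 in Irf2AhcKO. Both groups spread over more than 1 log2 unit and overlapped (difference 0.56, SE 0.39, limma adjusted p = 0.577). The difference was 0.26 without control replicate 1, 0.37 without Irf2AhcKO replicate 2, 0.38 without Irf2AhcKO replicate 3 and 0.88 without control replicate 2.
Alox5ap, the membrane protein that presents arachidonic acid to Alox5, read -0.39, -0.11, -0.06 and 0.10 in controls and -0.35, 0.01, 0.54 and -0.62 in Irf2AhcKO. Its group means were nearly equal (difference 0.01, SE 0.24, limma adjusted p = 0.992), yet replicates 3 and 4 of Irf2AhcKO were the highest and the lowest of the 8 arrays. Ltc4s, the leukotriene C4 synthase, stayed between 0.97 and 1.38 on all arrays (difference 0.06, SE 0.10). On the prostaglandin side, the cyclooxygenase gene Ptgs1 was well above background on 1 array of each group, with its highest values on control replicate 3 (-3.18) and Irf2AhcKO replicate 3 (-3.04). Hpgds, the prostaglandin D synthase, read -4.72, -5.81, -4.56 and -3.70 in controls and -6.47, -5.52, -4.97 and -6.25 in Irf2AhcKO. It was well above background on 1 control array and on none of Irf2AhcKO, which gives no fold.

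Of the cytokine genes, Il25, the tuft cell alarm cytokine, read -3.50, -3.08, -4.31 and -4.14 in controls and -4.50, -3.25, -4.64 and -4.52 in Irf2AhcKO. It was well above background on 2 control arrays and 1 Irf2AhcKO array, and was therefore not tested. Il17rb, a subunit of the receptor for Il25, was measured near the limit, on 3 arrays of each group, with differences of -0.56 on slide 1 and 0.74 on slide 2. Il13ra1, through which interleukin 13 reaches the epithelium, differed by 0.08 (SE 0.12).

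Among the structural and surface markers, Dclk1, a doublecortin-like kinase and the usual tuft cell marker, read 0.26 and 0.18 on the slide 1 controls against 0.56 and 0.87 in Irf2AhcKO, and 1.18 and 1.22 on the slide 2 controls against 2.52 and 1.604. Within each slide both Irf2AhcKO arrays lay above both controls, while over the 8 arrays the groups overlapped because of the slides. This gave a difference of 0.68 (SE 0.20, limma adjusted p = 0.327). Slide 1 alone gave 0.49 and slide 2 alone 0.86. Of its 2 further probes, 1 was well above background on all arrays with a difference of 0.33 (SE 0.35). The other was so on 1 control array and 3 Irf2AhcKO arrays, and thus passed the filter mainly through Irf2AhcKO. Its difference was 0.71 (SE 0.46), with -0.12 on slide 1 and 1.53 on slide 2, so it lends the brightest probe no support.

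Siglecf, a sialic acid-binding lectin also known from eosinophils, read -0.97, -1.94, -0.82 and -1.52 in controls and -0.60, 0.31, -0.07 and -0.98 in Irf2AhcKO. Replicates 1, 2 and 3 of Irf2AhcKO lay above every control, and the difference of 0.98 (SE 0.36, limma adjusted p = 0.375) was the widest of the 24. A further Siglecf probe gave 0.74 (SE 0.27). Of 4 eosinophil genes, Epx, Prg2 and Ccr3 were not well above background on any array, while Il5ra was on all 8, with a difference of 0.27 (SE 0.11, limma adjusted p = 0.427) and r = 0.59 with the mean tuft cell profile described further on. The part of eosinophils in the Siglecf values was not tested.
Avil, the actin-binding advillin of the apical tuft, read -2.08, -0.93, -1.64 and -1.51 in controls and -1.55, -0.23, -0.17 and -1.17 in Irf2AhcKO. Replicates 2 and 3 of Irf2AhcKO stood clear of all others and replicates 1 and 4 within the controls (difference 0.76, SE 0.39, limma adjusted p = 0.478). Cd24a, a surface glycoprotein of many epithelial and blood cells, stayed between 4.29 and 4.88 (difference 0.06, SE 0.10). Chat, the enzyme of acetylcholine synthesis, was not well above background on any array.

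**Figure D2:**
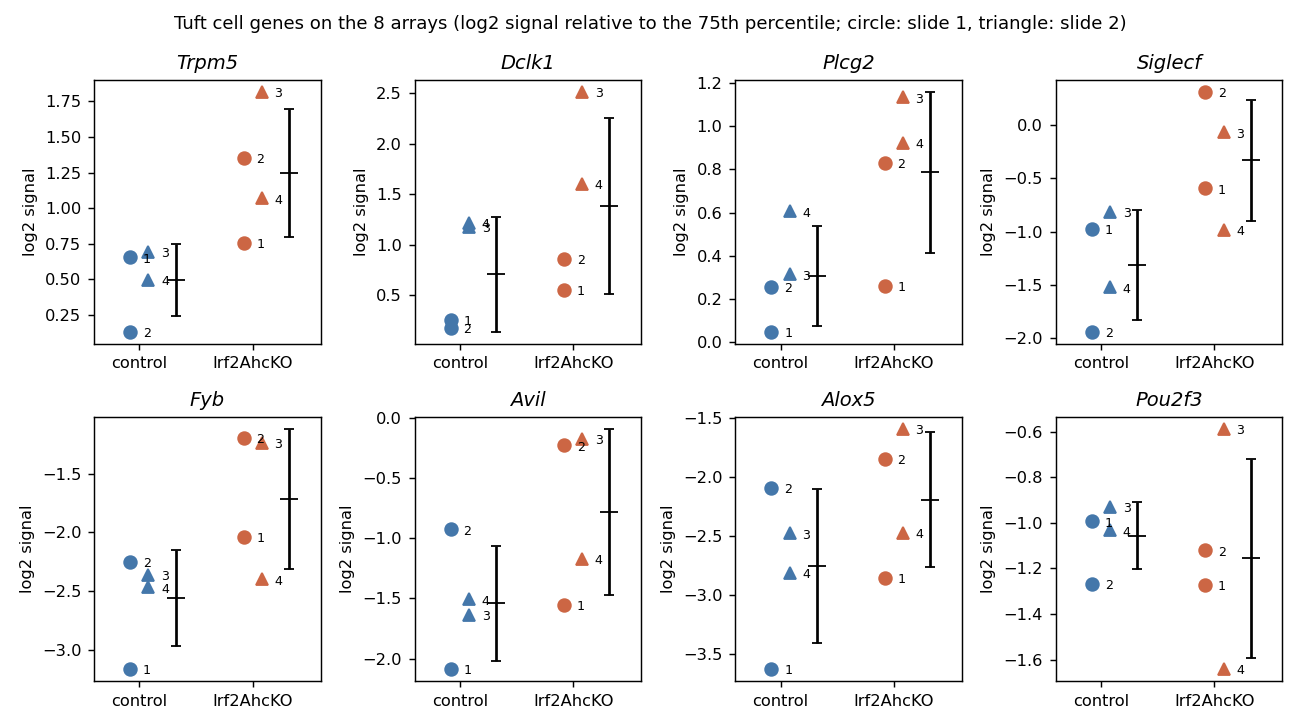
Log2 signal after subtraction of each array's 75th percentile (vertical axes, each with its own range) of 8 tuft cell genes, with control arrays in blue, Irf2AhcKO arrays in orange, circles for slide 1, triangles for slide 2, replicate numbers beside the points, and the mean with SD (n = 4) as a black bar. The groups are apart for Trpm5 and overlap for the other 7, and in Avil and Alox5 Irf2AhcKO replicates 2 and 3 are the highest.

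The signalling genes shared with white blood cells included Fyb, a T cell adaptor, which read -3.16, -2.25, -2.36 and -2.47 in controls and -2.04, -1.19, -1.24 and -2.40 in Irf2AhcKO. Replicates 1, 2 and 3 of Irf2AhcKO lay above every control (difference 0.84, SE 0.34, limma adjusted p = 0.411). Bmx, a Tec-family kinase, read 0.37, 0.36, 0.28 and 0.65 in controls and 0.53, 0.65, 0.78 and 0.46 in Irf2AhcKO, where the groups overlapped (difference 0.19, SE 0.11, adjusted p = 0.530, and 0.12 without control replicate 3).
The exchange factor Vav1 differed by 0.22 (SE 0.29) in its brightest probe, where Irf2AhcKO replicate 1 was the lowest array at 0.01, and by 0.47 (SE 0.14) in a further probe well above background on all arrays. The phosphatase gene Ptpn6 differed by 0.24 (SE 0.19). Rgs13, a regulator of G protein signalling, ran from -3.36 to -1.05 in Irf2AhcKO around controls between -2.14 and -1.95, so that its means nearly coincided (difference -0.03, SE 0.40). The lipid phosphatase gene Inpp5d was well above background on 1 control array and 2 Irf2AhcKO arrays and was not tested.

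White blood cell markers were measured beside these genes. Of 5 markers of all white blood cells, Laptm5, Cd53 and Coro1a were not well above background on any array and Cd52 on 1, while Ptprc differed by 0.05 (SE 0.09). The mast cell genes Cpa3, Fcer1a, Ms4a2, Mcpt1, Mcpt2 and Cma1 were not well above background on any array and Hdc was on 2. The mast cell genes that were measured differed by 0.26 (SE 0.17) for Kit and 0.30 (SE 0.14) for Tpsb2, with a log2 summed level of 1.36 to 1.89 in controls and 1.41 to 2.33 in Irf2AhcKO. In the T cell list 6 of 13 genes were measured, among them Nkg7 at 0.40 (SE 0.14) and Lck at 0.36 (SE 0.15), with 1 of 6 at an unadjusted p below 0.05 (11.7% of all features), a median difference of 0.28, and a log2 summed level of 3.07 to 3.56 in controls and 3.49 to 3.75 in Irf2AhcKO. The myeloid list had 9 of 11 measured, a median of -0.03 and a log2 summed level of 7.02 to 8.06 in controls and 6.998 to 8.13 in Irf2AhcKO, with Fcer1g at 0.53 (SE 0.20). Of 6 B cell genes 4 were measured, and Cd79b differed by 1.33 (SE 0.28) with 2 of 4 control arrays well above background. The part of these cells in the values of Fyb, Vav1 and Ptpn6 was not tested.

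The 24 genes moved together more by array than by group. On slide 1, Irf2AhcKO replicate 2 was the highest of the 4 arrays for 17 of the 24, against 24.7% of all features. On slide 2, Irf2AhcKO replicate 3 was the highest for 22 of the 24, against 19% of all features. Both held for 16 of the 24 genes, against 4.67% of all features. The exceptions were Cd24a, Gng13, Il17rb, Itpr2, Plcb2, Pou2f3 and Tas1r3 on slide 1, and Ffar3 and Tas1r3 on slide 2. Irf2AhcKO replicates 2 and 3 were named after seeing that these genes stood highest on them, and the genes co-vary. The shares of all features on the same arrays are therefore a description and no test. The other Irf2AhcKO array of each slide stood lower. The median of the 24 was -0.77 on replicate 1 and -0.995 on replicate 4, beside -0.31 on replicate 2, -0.12 on replicate 3 and -1.04 to -0.83 in controls. Their mean was -0.91 on replicate 1 and -0.57 on replicate 4, beside -0.29 on replicate 2, 0.03 on replicate 3 and -0.76 to -0.65 in controls. Replicate 1 thus lay above the controls by the median and below them by the mean. Replicate 4 lay within them by the median and above them by the mean.

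**Figure D3:**
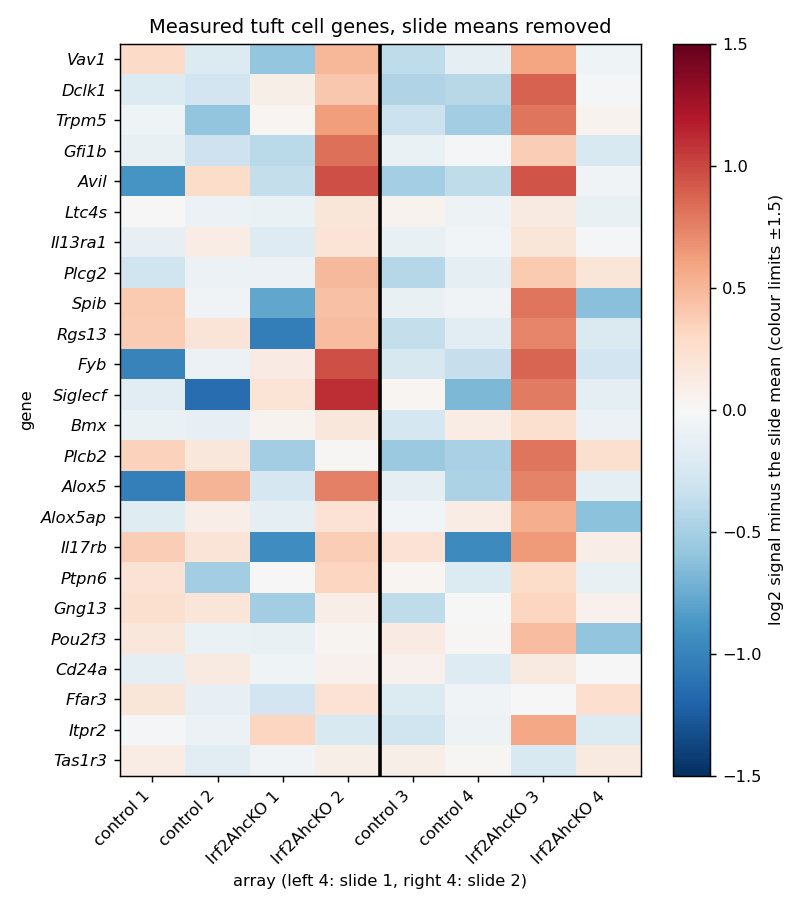
Log2 signal of the 24 measured tuft cell genes (rows) on the 8 arrays (columns) after the mean of each slide was subtracted, with red above and blue below the slide mean and colours limited at 1.5 either way. The columns of Irf2AhcKO replicates 2 and 3 are red in most rows, whereas Irf2AhcKO replicate 1 is blue for Rgs13, Il17rb and Spib.

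Over all 276 pairs of the 24 genes, the median Pearson r across the 8 arrays was 0.43, against 0.0175 over pairs of all features. With slide means removed it was 0.46 with 89.1% of the pairs positive, against 0.0035 over pairs of all features. Removing the mean of each group on each slide, which takes out the contrast between genotypes, gave 0.59, against 0.0065. A group has 2 arrays on a slide, which then hold mirrored values, so this r rests on fewer than 8 separate values per gene. The pairs of genes share the same 8 arrays and are no independent observations. The co-variation was weaker without the Irf2AhcKO arrays named above. That pair was chosen after seeing that these genes stood highest on it, a choice that by itself tends to lower r. No other pair was left out for this median. With slide means removed, the median r was 0.41 without replicate 2, 0.28 without replicate 3 and -0.04 without both, against 0.46 to 0.57 without any 1 of the other 6 arrays.

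**Figure D4:**
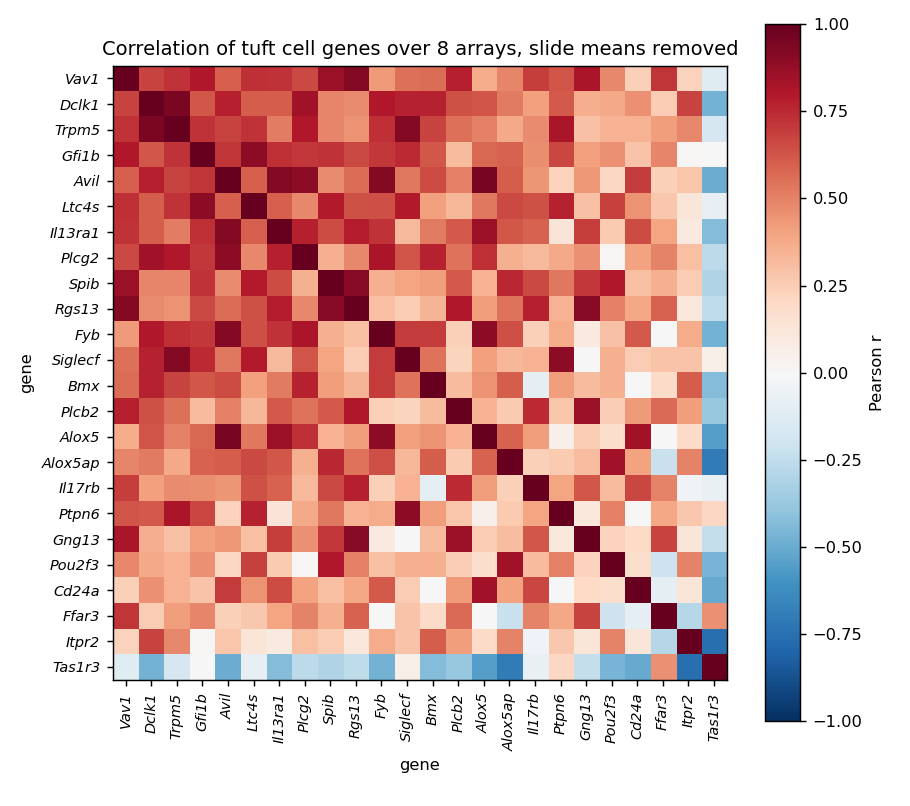
Pearson r (colour) between each pair of the 24 measured tuft cell genes over 8 arrays with slide means removed, ordered by likeness to the mean profile. Most of the square is red, and the row of Tas1r3 is mostly blue.

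Dclk1 was set against each of the other 23 genes over the 8 arrays, with exact permutation tests over all 40320 pairings, two-sided, and Benjamini-Hochberg adjustment over the 23. None passed after adjustment, and 5 had an unadjusted p below 0.05. The share of all features with such a p against Dclk1 was not computed. These pairings also ignored the slide, by which Dclk1 differed, so the 5 cannot be read as particular to tuft cell genes. The closest was Il13ra1, the other gene that differed between slides, with r = 0.88 (exact permutation p = 0.00265, adjusted 0.0610) and Spearman's rho = 0.90 (p = 0.00456, adjusted 0.0525).
Plcg2 followed with r = 0.86 (exact permutation p = 0.00556, adjusted 0.0639) and rho = 0.90 (p = 0.00456, adjusted 0.0525). Trpm5 had r = 0.77 (exact permutation p = 0.0259, adjusted 0.149) and rho = 0.62 (p = 0.115, adjusted 0.435). The remaining pair with such a p were Ltc4s at r = 0.78 and Ptpn6 at r = 0.74.

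Within slides the order of these relations changed. With slide means removed and permutations within slides, Trpm5 came first with r = 0.94 (exact permutation p = 0.00347, adjusted 0.0799), Plcg2 had r = 0.84, Fyb 0.80, Avil 0.78 and Siglecf 0.77, and Il13ra1 dropped to 0.60. A slide holds 4 arrays, too few for a value within it alone. Without control replicate 2 and Irf2AhcKO replicate 3, the arrays farthest from the median of Dclk1, r was 0.93 for Il13ra1, 0.76 for Plcg2, 0.47 for Ltc4s, 0.30 for Ptpn6 and 0.19 for Trpm5. The median over the 23 dropped from 0.54 to 0.18. Leaving out arrays at the ends of the Dclk1 range tends by itself to lower r, and slide means were kept here. The drop therefore cannot tell how far the relations rested on those arrays. Of the 5 genes with an unadjusted p below 0.05, Il13ra1 and Plcg2 had r above 0.5 without those arrays.

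Genes outside the list were compared with the mean profile of the 22 tuft cell genes well above background on all arrays, each scaled to unit SD after slide means were removed. An r above 0.8 with this profile was found for 0.83% of all features and 8 of the 24 tuft cell genes, 7 of which helped to make the profile. The 10 named genes with the highest r were Pygl (0.98), Tuba1a (0.97), Lrmp, Kit and Gprc5c (0.96), Tbc1d30, Espn and Arl6ip1 (0.96), and Orai3 and 5033421B08Rik (0.95). Tuba1a, an alpha tubulin, Lrmp, a membrane protein of the endoplasmic reticulum, and Espn, the actin-bundling espin, came from the list of further tuft cell signature genes. Kit, a receptor tyrosine kinase, stood in the mast cell list, whose Tpsb2 had r = 0.07 and whose other genes were not measured.

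Pygl, a glycogen phosphorylase, read -0.29, -0.56, -0.18 and -0.03 in controls and -0.58, 0.26, 1.07 and -0.15 in Irf2AhcKO. Its high arrays were again Irf2AhcKO replicates 2 and 3, and replicate 1 was the lowest of all 8. Tuba1a read 2.06, 1.82, 1.68 and 1.32 in controls and 1.71, 2.64, 2.59 and 1.73 in Irf2AhcKO, with the same pair of arrays above the rest. None of the 10 passed the group comparison (limma adjusted p from 0.444 to 0.600).

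Further tuft cell signature genes, which the mean profile did not use, were compared with it. Of 38 listed, 29 were measured, their median r was 0.64 against -0.05 over all features, and 9 of the 29 exceeded 0.8 (31.0% against 0.83%). Besides Tuba1a, Lrmp and Espn these included the sarco/endoplasmic calcium pump Atp2a3 (0.90), the kinase Matk (0.88), Rac2 (0.85), Kctd12 (0.815) and Fxyd6 (0.80), named after their values were seen. The white blood cell gene Ptprc had r = -0.38, and Hebp1 -0.39.
In the group comparison 0 of the 29 passed over all features. At an unadjusted limma p below 0.05, 4 stood higher, namely Runx1 by 0.55 (SE 0.13), Cd300lf by 0.68 (SE 0.18), Matk by 0.52 (SE 0.15) and Fxyd6 by 0.73 (SE 0.28), and Hebp1 stood lower by a difference of -0.42 (SE 0.17), where 5.98% of all features stood higher and 5.75% lower at such a p. The median difference of the 29 was 0.14.

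The wider tuft cell circuit was followed in a list of its own. Of 44 genes for cytokine receptors, taste receptors, calcium channels, eicosanoid and acetylcholine enzymes and lineage factors, 31 were measured. Their median difference was 0.00 and their median r with the mean profile 0.11. None passed over all features, and at an unadjusted p below 0.05 the homeobox factor Hmx3 stood higher by 0.62 (SE 0.15, limma adjusted p = 0.250, r = 0.80) and Ache, the acetylcholine esterase, had a difference of -0.35 (SE 0.14). These 2 of 31 compare with 11.7% of all features at such a p. The interleukin receptor chain Il4ra differed by 0.17 (SE 0.10) and the stem cell factor Ascl2 by -0.46 (SE 0.20). The cytokine genes Il13 and Il4 were not well above background on any array.

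**Figure D5:**
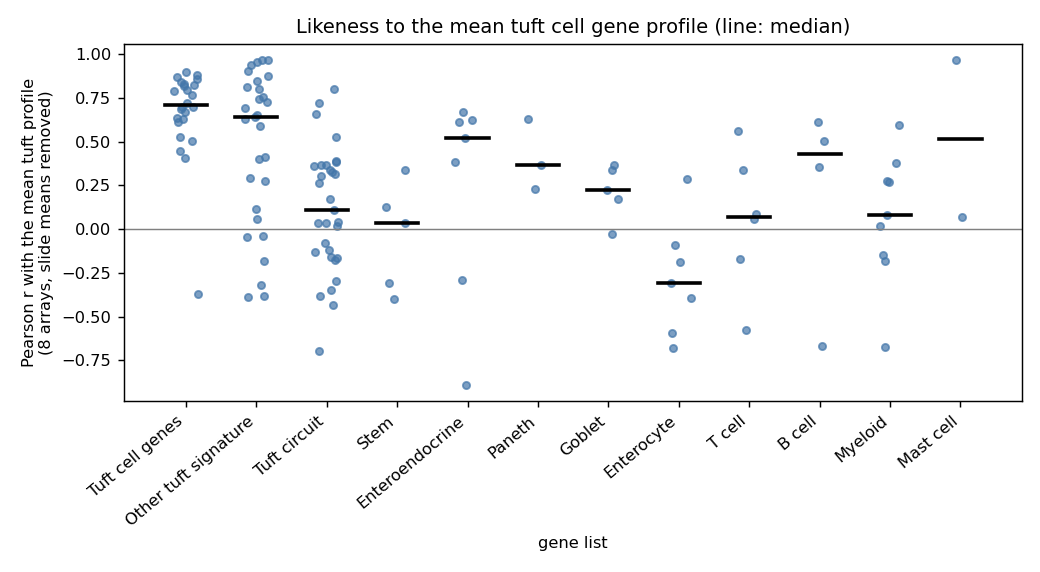
Pearson r of single genes (points) with the mean tuft cell profile over 8 arrays with slide means removed (vertical axis), by gene list (horizontal axis), with the median of each list as a black line. Tuft cell genes, most of which make up the profile, have a median of 0.71 and further tuft signature genes 0.64, while stem cell markers lie around 0.04 and enterocyte markers around -0.31.

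Markers of the other epithelial cells followed the profile to different degrees. The 5 stem cell markers had a median r of 0.04 and the 5 goblet cell genes 0.23, with no gene above 0.5 in either. Their median differences were -0.15 and -0.16. No gene of either list had a positive difference, against 49.5% of all features, and none passed the adjusted threshold. Among them, Lgr5 differed by -0.29 (SE 0.16) and Muc2 by -0.30 (SE 0.12). Of the 7 enteroendocrine genes, Tac1 (0.67), Chgb (0.63), Sct (0.61) and Chga (0.52) exceeded 0.5 while Gip stood at -0.89. Their median difference was 0.28. An unadjusted limma p below 0.05 was found for 3 of the 7, against 11.7% of all features. These were Chga at 0.72 (SE 0.18), Tac1 at 0.54 (SE 0.15) and Gip at -0.75 (SE 0.25). Of the 3 Paneth cell genes measured, Mmp7 had an r of 0.63, Lyz1 0.37 and Ang4 0.23, and all 3 differences were positive, at 0.52 (SE 0.13), 0.01 (SE 0.18) and 0.16 (SE 0.18). None of these enteroendocrine and Paneth cell genes passed the adjusted threshold.
The 7 enterocyte genes had a median r of -0.31 and a median difference of -0.77, among them Fabp2, a fatty acid-binding protein, at -0.50 (SE 0.08), with 5 lower at an unadjusted limma p below 0.05 (5.75% of all features) and none past the adjusted threshold. Their log2 summed level was 6.52 to 10.53 in controls and 6.05 to 6.38 in Irf2AhcKO. The 10.53 came from the sucrase gene Sis, which read 10.42 on control replicate 4 and -1.74, -1.66 and -0.79 on the other controls. Without Sis the controls lay between 6.51 and 6.79 and Irf2AhcKO between 6.05 and 6.38. That sum came mostly from Fabp2, which alone read 6.37 to 6.71 in controls and 5.92 to 6.28 in Irf2AhcKO. Fabp1 read 1.31 to 1.78 in controls and 0.66 to 1.27 in Irf2AhcKO. Alpi read -1.23 to -0.46 in controls and -1.92 to -1.31 in Irf2AhcKO. The groups were thus apart for Fabp2, Fabp1 and Alpi and overlapped for the other genes of the list. Groups without overlap were found for 3.85% of all features. Of the 7 genes, Krt20 had the 1 positive difference, 0.23 (SE 0.24). The part of the makeup of the sorted cells in the tuft cell values was not tested.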

How the data were processed

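RNA of 8 sorted samples was hybridised to 1-colour Agilent arrays. Per the labels' protocols, RNA was amplified before Cy3 labelling, which can distort single transcripts. The authors deposited scanner files made with Agilent Feature Extraction 11.5.1.1, per the submitters' processing notes, and the processed intensity of each spot was used. The authors' series table holds the same intensity times 1 constant per array (6.41 to 6.90), linear and uncentred, with column medians of 207 to 246.

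Of 55681 probes, 28331 were named through RefSeq accessions (GRCm38.p6). Here each array's 75th percentile, taken across its 59305 non-control spots, was subtracted from log2 signals, outlier spots were left out, and probes well above background on 4 or more arrays were kept, the brightest per gene. limma 3.58.1 in R 4.3.3 (lmFit, eBayes) compared the groups with the slide as a term, Benjamini-Hochberg threshold 0.05, and was tested on simulated data. Deviations from group means correlated between arrays of equal number (r = 0.46 to 0.53). Arrays of equal number also shared a slide, and slide means were not removed for this r. It therefore cannot tell pairing by number from the slide. The labels do not say what a number marks. The files hold median rather than mean spot signals, so normexp used those.

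Members and lists were chosen with earlier results of these data known. Named in full were Dclk1, Pou2f3, Trpm5, Alox5ap, Il25, Gfi1b, the 8 members of lowest p, members above background in 1 group only, up to 4 genes per further list by p, and the 10 genes most like the mean profile. Sct and further signature genes with r above 0.8 were named after their values were seen, and 1 of the latter is not reported here. Alternatives covered background correction, scaling, filter, probe choice, the authors' table, slide, replicate block, array weights and left-out arrays.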

Additional observations from a re-analysis of the deposited data

How the results depend on the processing

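No tuft cell gene passed the adjusted threshold in any of the alternatives run, and 10 of the 24 kept their direction in all of them (Dclk1, Trpm5, Alox5, Avil, Siglecf, Plcg2, Ptpn6, Fyb, Bmx and Itpr2). The count of features past the threshold, 25 as reported, was 133 with normexp, 7 without a filter on dim probes, 46 among probes well above background on all 8 arrays, and 0 for slide 1 alone, slide 2 alone, the replicate block, without control replicates 3 and 4 and without Irf2AhcKO replicates 2 and 3. The last was chosen after seeing the data. At an unadjusted limma p below 0.05 these 5 gave 2539, 1337, 3293, 2942 and 2245 features, and without 1 array the count past the threshold was 0 to 25, with 0 without control replicate 2 or Irf2AhcKO replicate 1 or 2, 1 without Irf2AhcKO replicate 3, 3 without Irf2AhcKO replicate 4, 6 without control replicate 3 and 11 without control replicate 1. The replicate block called 0 tuft cell genes, and 7 had an unadjusted p below 0.05. The count of Dclk1 relations past the threshold, 0 as reported, was 2 with normexp and 0 to 1 without 1 array. Each cause was not tested. Differences changed sign with normexp for Rgs13 (0.025) and Tas1r3 (0.035), with the percentile over bright probes for Gng13 (0.0049), with median scaling for Alox5ap (-0.017), with the mean of probes for Il17rb (-0.068) and with array weights for Alox5ap (-0.059) and Il17rb (-0.049). On slide 1 alone, and with equal values without control replicates 3 and 4, they did so for Il17rb (-0.56), Plcb2 (-0.51), Tas1r3 (0.041), Vav1 (-0.083), Ffar3 (-0.062) and Cd24a (-0.0057). On slide 2 alone they did so for Alox5ap (-0.064), Rgs13 (0.52), Gng13 (0.39) and Spib (0.17). Without Irf2AhcKO replicates 2 and 3 they did so for Alox5ap (-0.37), Gfi1b (-0.18), Ltc4s (-0.079), Il17rb (-0.37), Plcb2 (-0.012), Tas1r3 (0.027), Vav1 (-0.21), Cd24a (-0.0072) and Il13ra1 (-0.069). Without 1 array, differences ranged from -0.30 to 0.12 for Pou2f3, -0.21 to 0.26 for Alox5ap, -0.33 to 0.38 for Rgs13, -0.0073 to 0.11 for Ltc4s, -0.28 to 0.48 for Il17rb, -0.0048 to 0.53 for Plcb2, -0.098 to 0.057 for Tas1r3, -0.17 to 0.19 for Gng13, -0.42 to 0.21 for Spib and -0.0044 to 0.13 for Cd24a. Signal near background limits Gfi1b and Il17rb and kept 7 matched genes out of the test.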
